A study of Rattus norvegicus with 6 samples.

Results

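Histone genes were followed in NRK-52E cells, an established line of epithelial cells from rat kidney, with and without streptozotocin (STZ), a glucosamine-linked nitrosourea that alkylates DNA. The members were the rows of the deposited count table whose symbol starts with Hist1h to Hist4h, H1f, H2a, H2b, H3f or H4, which gave 33 of 18930 rows and 27 distinct symbols. RNA came from 3 Control samples, given vehicle, and from 3 samples kept in STZ at 10 mM for 24 h. The cells were labelled wild type. Whether the samples were separate cultures is not stated, so p-values measure the spread between these samples, which may be technical.

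Histones are the proteins around which DNA is wound. H2A, H2B, H3 and H4 form the core of the nucleosome, and H1 proteins bind the linker DNA between nucleosomes. Most histone protein of a dividing cell is made in S phase from genes that stand side by side in clusters, and the mRNAs of these replication-dependent genes end in a stem-loop in place of a poly(A) tail. Variant histones, such as H2A.Z, H3.3 and H1.0, are made from single genes with ordinary polyadenylated mRNA, throughout the cell cycle, and are placed at particular sites or in cells that no longer divide. The libraries were prepared by poly(A) selection, which retains mRNA of the second kind. Reads of the cluster genes therefore stand for whatever part of their transcripts was polyadenylated, and cannot be read as the level of their stem-loop mRNA.

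The deposited table mixes old and new names. By symbol, 17 rows carry an old cluster name (Hist1h, Hist2h or Hist3h) and are called cluster genes below, and the other 16 are called variant genes. Some of the latter are genes of the clusters under a newer name, and the limit that poly(A) selection sets on genes in clusters holds for them too. In the RefSeq annotation of GRCr8, a build other than the Rnor6 assembly the authors mapped to, 24 of the 33 rows, among them H1f2, H1f4, H1f5, H2bc18 and H4f3, had another histone gene within 5 genes, and 9 rows did not. This grouping by position was made after the values were seen. H4f3 is listed there with the older symbol Hist1h1d, an H1 name, so its family is uncertain. H3f3c is listed as a pseudogene.

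Promoters are shown for some of the members that moved, for H4f3 and for a member with the H2B octamer. The boxes they hold are set beside their changes. The promoters of H2az2, H1f10 and H3f3a, which were also lower in STZ (H3f3a on its second row), are not shown. The 150 bases before the start of each gene were taken from RefSeq (GRCr8), with 5′ to 3′ orientation along the gene, and capitals mark CCAAT or TATAAA boxes or the octamer ATTTGCAT on either strand.
H2aj, chr4:171406772-171406921, forward strand: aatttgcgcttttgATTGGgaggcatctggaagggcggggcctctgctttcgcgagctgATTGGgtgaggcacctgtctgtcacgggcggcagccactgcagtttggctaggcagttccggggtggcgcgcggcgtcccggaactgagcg
H2az1, chr2:229028945-229029094, forward strand: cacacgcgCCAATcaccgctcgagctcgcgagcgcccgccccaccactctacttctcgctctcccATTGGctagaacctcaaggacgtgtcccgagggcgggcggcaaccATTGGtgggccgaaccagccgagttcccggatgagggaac
H2ax, chr8:53568568-53568717, forward strand: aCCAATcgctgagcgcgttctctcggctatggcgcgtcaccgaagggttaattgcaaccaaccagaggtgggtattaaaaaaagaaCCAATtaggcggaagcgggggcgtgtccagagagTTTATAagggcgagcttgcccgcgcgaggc
H1f0, chr7:112473130-112473279, forward strand: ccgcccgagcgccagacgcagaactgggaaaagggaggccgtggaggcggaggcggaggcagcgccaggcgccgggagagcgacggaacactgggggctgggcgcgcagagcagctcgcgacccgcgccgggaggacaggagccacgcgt
H1f2, chr17:41820454-41820603, reverse strand: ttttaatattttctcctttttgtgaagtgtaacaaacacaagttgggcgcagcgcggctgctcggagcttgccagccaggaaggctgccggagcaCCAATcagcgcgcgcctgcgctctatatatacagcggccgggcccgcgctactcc
H4f3, chr17:41980342-41980491, reverse strand: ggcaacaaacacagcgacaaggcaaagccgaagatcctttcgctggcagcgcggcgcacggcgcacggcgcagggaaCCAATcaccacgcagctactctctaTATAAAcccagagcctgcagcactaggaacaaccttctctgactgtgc
H2bc18, chr2:186527047-186527196, forward strand: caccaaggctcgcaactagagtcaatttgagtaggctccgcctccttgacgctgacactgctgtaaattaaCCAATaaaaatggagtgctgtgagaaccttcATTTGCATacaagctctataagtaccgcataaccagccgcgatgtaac
CCAAT boxes were present in the promoters of H2aj, which was higher in STZ-treated cells, and of H2az1, H2ax and H1f2, which were lower. H4f3 held a CCAAT box too, but it passed the filter on low counts through Control alone, so its difference was built in. The stretch of H1f0, which was also lower, held none of the motifs. Among the lower members not shown, H2az2 and H3f3a held CCAAT, and no match was found for H1f10. Of the 27 member symbols, 26 had a promoter of 300 bases (250 before and 50 after the start) in the RefSeq table. CCAAT was found in 18 of 19 promoters with a histone gene nearby (94.7%) and 5 of 7 without one (71.4%), against 37.5% of all 33469 promoters. TATAAA was found in 9 of the 19 (47.4%) and 2 of the 7 (28.6%), against 14.2% of all. These matches could lie anywhere in the 300 bases, and that of H2az1 began 9 bases after the start. The octamer was found in 5 of the 19, none of the 7 without a histone neighbour, and 1.78% of all. These are matches of letters, which do not show that a factor was bound.

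Total counts lay between 10430924 and 15191349 per sample, and TMM scaling factors lay between 0.988 and 1.02. Values below are TMM-scaled CPM, a count set to a common library size, unless raw reads are named. The 4 epithelial markers with a row summed to 1105 to 1180 CPM in Control and 1599 to 1615 CPM in STZ. Nearly all of this was Krt8, with 1102 to 1178 CPM in Control and 1597 to 1613 CPM in STZ. Cdh1 was lower in STZ, with means of 2.58 CPM in Control and 1.64 CPM in STZ (log2 fold change -0.69, edgeR adjusted p = 0.0296). The remaining 2 of the 4 had at most 10 reads in every sample. Of 6 proximal tubule markers, 5 had at most 10 reads in every sample (Aqp1 was the exception), and the list summed to 9.90 to 16.5 CPM in Control and 5.74 to 6.83 CPM in STZ. Markers of endothelium, fibroblasts and immune cells summed to 0.455 to 0.754, 47.2 to 52.4 and 1.46 to 2.17 CPM in Control, and to 0.800 to 1.13, 36.8 to 43.7 and 2.26 to 2.84 CPM in STZ. Their part in the results on histone genes was not tested.

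Most histone genes with many reads had fewer reads in STZ-treated cells, while H2aj had more and 1 of the H3f3a rows did not pass the test. Summed over all 33 rows, histone reads were 1517 ± 25.1 CPM in Control (SD, n = 3) and 1021 ± 17.5 CPM in STZ (SD, n = 3), which was 32.7% lower. The sums ran from 1491 to 1541 CPM in Control and from 1003 to 1038 CPM in STZ, so the groups did not overlap. Nearly all of these reads, 99.0%, came from the 9 rows with a mean of over 100 reads per sample (H3f3a on 2 rows, H2az1, H1f0, H1f2, H2az2, H2ax, H1f10 and H2aj). In bulk samples, fewer cells of a type and less RNA per cell cannot be told apart.

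Of these 9 rows, 7 were lower at an adjusted p under 0.05 (edgeR quasi-likelihood, adjusted across every gene tested), 1 was higher and 1 did not pass. Among all 9555 genes with such a mean, 27.5% were lower and 28.1% were higher. Over the 15 members that passed the filter on low counts, 9 were lower and 1 was higher, against 25.1% and 25.9% of the 11870 genes tested (50.9% in either direction). The groups did not overlap in 9 members that were lower in STZ and 1 that was higher, against 27.7% and 28.6% of genes tested. With an absolute log2 fold change over 1 as well, 3 members were lower (H1f0, H4f3 and 1 row of Hist2h3c2), against 1.11% of genes tested, and 0 were higher, against 2.26% (3.37% in either direction). H4f3 and the Hist2h3c2 row passed the filter through Control alone, so their difference was built in. Without them 7 members were lower and 1, H1f0, was past both thresholds. The median log2 fold change of all 15 tested members, with H4f3 and the Hist2h3c2 row included, was -0.64. These rows pull it down. The median of all genes tested was -0.01.

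**Figure D1:**
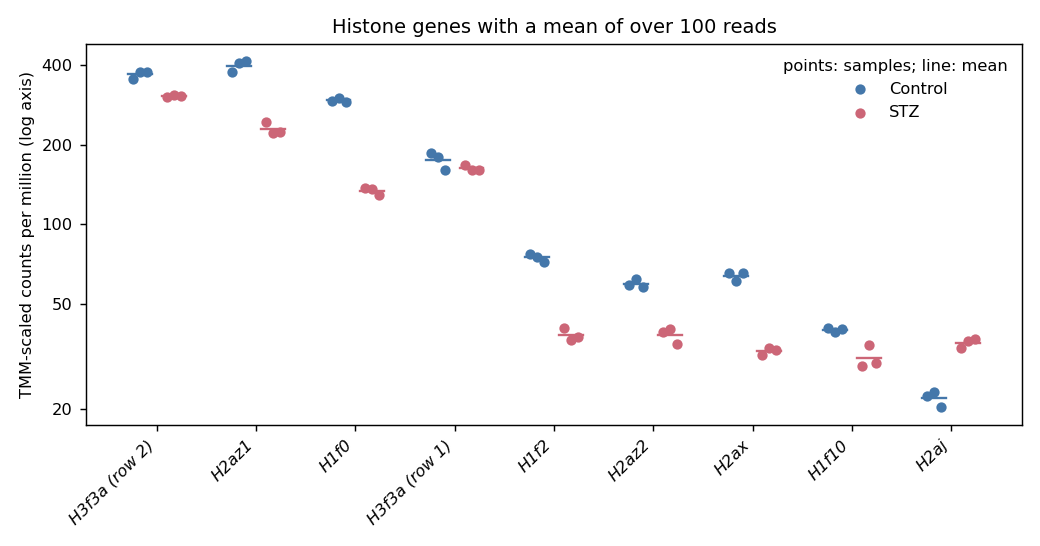
TMM-scaled CPM (log axis) of the 9 histone rows with a mean of over 100 reads, with 1 point for each of 3 Control (blue) and 3 STZ samples (red) and a line at each mean. Only H2aj lies higher in STZ, from 34.1 to 36.8 against 20.3 to 23.3 in Control, and only the first H3f3a row overlaps between groups.

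All 3 linker histones with many reads had fewer reads in STZ-treated cells. H1f0, which encodes H1.0, the linker histone known to accumulate in cells that have stopped dividing, had 293, 301 and 292 CPM in Control replicates 1, 2 and 3 and 137, 137 and 130 CPM in STZ replicates 1, 2 and 3. All STZ samples lay far under all Control samples. Its log2 fold change was -1.14 ± 0.04 (SE, edgeR adjusted p = 8.2e-26), the 80th lowest of the 11870 genes tested. H1f2 encodes H1.2, a linker histone whose gene stands in the large cluster. The limit that poly(A) selection sets on genes in clusters holds for its reads. H1f2 had 77.3, 75.5 and 72.1 CPM in Control and 40.6, 36.5 and 37.4 CPM in STZ. The groups did not overlap, and the log2 fold change was -0.97 ± 0.06 (SE, edgeR adjusted p = 4.0e-18), just short of the fold-change threshold. In GRCr8 the span of H1f2 overlaps the gene H4cl1, and whether counting used strand is not given in the sources used here.

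H1f10 is the gene of the H1.10 variant (H1X). Its values were 40.5, 39.2 and 40.0 CPM in Control and 29.1, 35.0 and 29.8 CPM in STZ, with a log2 fold change of -0.36 ± 0.07 (SE, edgeR adjusted p = 3.8e-05). STZ replicate 2 was the closest to Control. The ratio of raw H1f0 to H1f10 reads, which does not depend on library scaling, was 7.40 ± 0.239 in Control (SD, n = 3) and 4.32 ± 0.402 in STZ (SD, n = 3), with no overlap (7.23 to 7.67 and 3.91 to 4.71). The ratio of H1f0 to H1f2 reads was 3.94 ± 0.136 in Control and 3.53 ± 0.195 in STZ (SD, n = 3 each), a smaller gap that also left the groups apart (3.79 to 4.05 and 3.38 to 3.75). An exact two-sided permutation test of 3 samples against 3 cannot give a p under 0.1, so no test of these ratios is given.

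Among the H2A variants, H2ax and both H2A.Z genes fell while H2aj rose. H2ax encodes H2AX, the histone that is phosphorylated around DNA breaks and then called γH2AX, a mark of DNA damage. Its mRNA was at 65.2, 61.2 and 65.5 CPM in Control and 32.1, 34.1 and 33.6 CPM in STZ. The log2 fold change was -0.95 ± 0.06 (SE, edgeR adjusted p = 2.9e-17), and no sample of one group came near the other. The counts measure polyadenylated H2ax mRNA, not the phosphorylated protein.

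H2az1 and H2az2 encode the 2 forms of H2A.Z, a variant placed beside transcription start sites. H2az1 had 377, 407 and 415 CPM in Control and 244, 221 and 225 CPM in STZ, a log2 fold change of -0.80 ± 0.04 (SE, edgeR adjusted p = 4.3e-20). H2az2 had 58.7, 62.0 and 57.9 CPM in Control and 39.2, 40.1 and 35.2 CPM in STZ, a log2 fold change of -0.64 ± 0.06 (SE, edgeR adjusted p = 7.0e-12). Neither gene overlapped between groups. H2az1 reads were 6.72 ± 0.402 times those of H2az2 in Control (SD, n = 3) and 6.04 ± 0.463 times in STZ (SD, n = 3). The ratios lay close together, from 6.41 to 7.17 and from 5.52 to 6.38, but did not overlap. The span of H2az2 overlaps the unnamed locus LOC134481693 in GRCr8.

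H2aj encodes H2A.J, an H2A variant that differs little from ordinary H2A and is known to accumulate in senescent human fibroblasts. It had 22.4, 23.3 and 20.3 CPM in Control and 34.1, 36.2 and 36.8 CPM in STZ. All STZ samples were above all Control samples, and the log2 fold change was 0.70 ± 0.08 (SE, edgeR adjusted p = 1.6e-10), the 538th highest of 11870. With 238 to 551 raw reads per sample it was the least read of the 9 rows. In raw reads of the same library, H2aj stood at 0.345 ± 0.0355 of H2ax in Control (SD, n = 3) and at 1.07 ± 0.0188 of H2ax in STZ (SD, n = 3). Of the reads of H2az1, H2az2, H2ax and H2aj together, H2aj took 3.63% to 4.29% in Control and 9.75% to 11.1% in STZ, while H2az1 took 72.0% to 74.3% and 66.7% to 69.9%. H2az2 took 10.4% to 11.2% in Control and 10.7% to 12.1% in STZ, which overlapped.

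**Figure D2:**
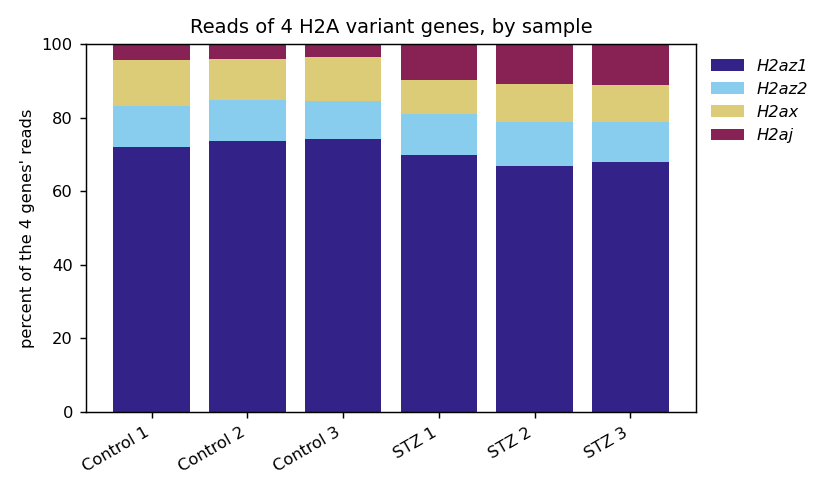
Share of the summed raw reads of H2az1, H2az2, H2ax and H2aj taken by each gene, in percent, with 1 stacked bar per sample. The H2aj share is 3.63% to 4.29% in the Control bars and 9.75% to 11.1% in the STZ bars, and the H2ax share goes from 11.1% to 12.5% to 9.19% to 10.3%.

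The rows of H3.3, the H3 variant laid down outside replication, had the smallest fold changes of the 9. The table holds H3f3a on 2 rows, and several pseudogenes and near-copies of this gene are annotated in GRCr8, so the rows could not be assigned to separate loci and their reads may be split between copies. H3f3b was not analysed here. The second row had 356, 377 and 378 CPM in Control and 305, 310 and 307 CPM in STZ, with no overlap and a log2 fold change of -0.27 ± 0.04 (SE, edgeR adjusted p = 7.0e-08). The first row had 187, 179 and 161 CPM in Control and 168, 161 and 160 CPM in STZ. These groups overlapped, and the log2 fold change was -0.10 ± 0.05 (SE, edgeR adjusted p = 0.052). Its call depended on the setting. It passed the threshold under library size only (edgeR adjusted p = 0.0105), upper-quartile scaling (0.0229), no filter (0.0467) and the replicate block (0.0293). With a sample left out, the edgeR adjusted p ran from 0.00144 without Control replicate 3 to 0.35 without Control replicate 1, and was 0.0491 without STZ replicate 1. When rows sharing a symbol were summed, an alternative chosen after seeing the data, H3f3a had a log2 fold change of -0.22 ± 0.04 (SE, edgeR adjusted p = 1.8e-06).

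**Figure D3:**
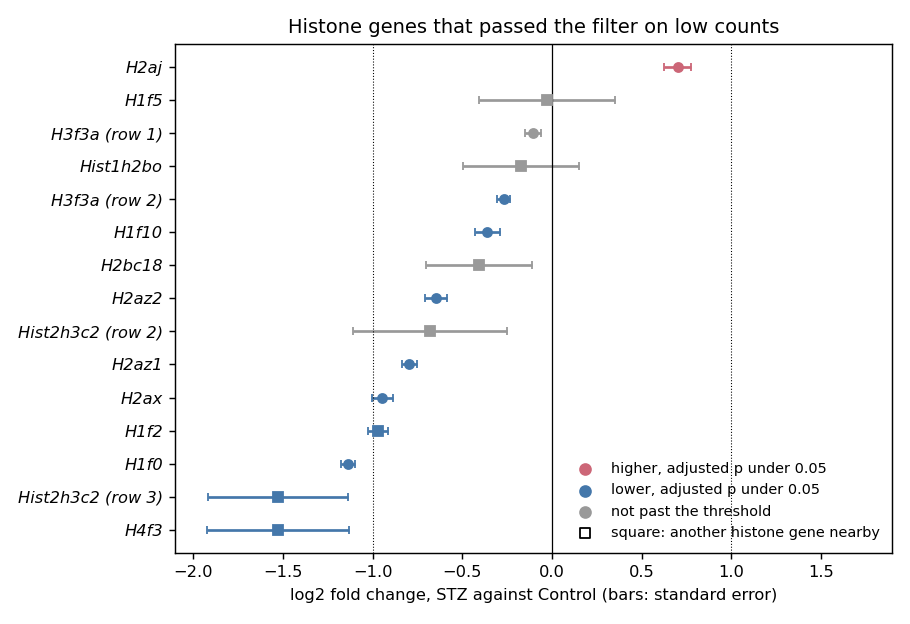
Log2 fold change (STZ against Control, bars for the standard error) of the 15 histone rows that passed the filter on low counts, with squares for rows that have another histone gene nearby in GRCr8 and dotted lines at the fold-change threshold. H2aj at 0.70 is the only one past 0 on the right. H1f0 at -1.14, Hist2h3c2 (row 3) at -1.53 and H4f3 at -1.53 lie past the threshold on the left. Of these, Hist2h3c2 (row 3) and H4f3 passed the filter through Control alone, so their difference was built in.

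The highest count in the remaining 24 rows was 31 reads, and 6 of them passed the filter. H4f3 had 18, 18 and 19 raw reads in Control and 13, 7 and 2 in STZ, a log2 fold change of -1.53 ± 0.39 (SE, edgeR adjusted p = 0.0012). Without STZ replicate 3, its lowest sample, the log2 fold change was -1.01 (edgeR adjusted p = 0.0296), and without STZ replicate 1 it was -2.20. The third of 5 rows named Hist2h3c2, an H3 gene, had 14, 15 and 16 reads in Control and 7, 5 and 6 in STZ, also a log2 fold change of -1.53 ± 0.39 (SE, edgeR adjusted p = 0.0011). In both rows all 3 Control samples reached the level of the filter, against 1 and 0 STZ samples, so these rows passed through the group where they were high and give no support of their own. Summed over its 5 rows, Hist2h3c2 had 34, 55 and 50 raw reads in Control and 18, 27 and 30 in STZ, a log2 fold change of -1.11 ± 0.23 (SE, edgeR adjusted p = 1.1e-04). The H3 genes of the clusters are near-identical, and the authors counted uniquely mapped reads, so the division of reads between these rows is uncertain.

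The other 4 did not pass the test. H2bc18 and Hist1h2bo, both H2B genes, had 15 to 31 and 12 to 23 reads, with log2 fold changes of -0.41 ± 0.30 (SE) and -0.17 ± 0.32 (SE). H1f5, a cluster gene of the H1.5 linker histone, had 5 to 16 reads and a log2 fold change of -0.03 ± 0.38 (SE). The second Hist2h3c2 row had 3 to 14 reads and a log2 fold change of -0.68 ± 0.43 (SE). With standard errors of 0.30 to 0.43, these rows were measured far less precisely than the 9 above.

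The 18 members under the filter had 0 to 18 reads per sample, and 9 of them were at 0 in at least 1 sample. Hist1h2ail1 had 11, 8 and 18 reads in Control and 9, 3 and 6 in STZ, and Hist1h2af had 7, 13 and 8 in Control and 9, 9 and 6 in STZ. Hist1h2ak had 1, 5 and 8 reads in Control and 1 read in each STZ sample. H3f3c had 5 to 10 reads. Reads of H2bu1, H1f4, Hist1h2bc, Hist1h2an, Hist1h2bg, Hist1h3b, Hist1h2bq, Hist1h4m and Hist3h2ba stayed at 9 or fewer in every sample. H1f6, the linker histone of the testis, had at most 3 reads. When the filter was left out, 6 of the 18 were lower at an adjusted p under 0.05 by edgeR and none higher. These were Hist1h2an, Hist1h2ail1, the fifth Hist2h3c2 row, H1f4, Hist1h2bg and Hist1h2ak. Of the 18930 genes in that fit, at all read levels, 15.6% were lower. The calls rest on few reads, as for Hist1h2bg, with 1, 8 and 1 in Control and 0, 0 and 1 in STZ. That fit also gave far smaller p-values, as for H1f0 (edgeR adjusted p = 8.7e-157 against 8.2e-26 with the filter).

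The cluster genes by symbol summed to 92, 117 and 116 reads in Control and 65, 66 and 79 reads in STZ, or 9.45 ± 1.04 and 5.24 ± 0.505 CPM (SD, n = 3 each). The variant genes by symbol summed to 1507 ± 24.1 CPM in Control and 1015 ± 17.7 CPM in STZ (SD, n = 3 each). The means were 44.5% and 32.6% lower in STZ, and in both classes the groups did not overlap. Of the 3 cluster genes tested, 1 was lower (the third Hist2h3c2 row, which passed the filter through Control alone). Of the 12 variant genes tested, 8 were lower and 1 was higher. H4f3, which also passed the filter through Control alone, is among the 8. Among all genes tested, 25.1% were lower and 25.9% higher. The medians were -0.68 for the cluster genes and -0.53 for the variant genes, the former over 3 rows only. Each median includes 1 row that passed the filter through Control alone. Without STZ replicate 1 the cluster median was -0.28, and without STZ replicate 3 it was -1.12.

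The 24 rows with a histone gene nearby summed to 89.8 ± 2.52 CPM in Control and 46.8 ± 1.82 CPM in STZ (SD, n = 3 each), most of it from H1f2. Without H1f2 they summed to 14.8 ± 1.08 and 8.62 ± 0.826 CPM, which was 41.9% lower in STZ. The 9 rows without a histone neighbour summed to 1427 ± 25.1 and 974 ± 15.8 CPM (SD, n = 3 each), which was 31.8% lower. Of the tested rows, 3 of 7 with a histone neighbour and 6 of 8 without one were lower, and 0 and 1 were higher. Among all genes tested these shares were the same 25.1% and 25.9%. Of the 3 lower rows with a neighbour, only H1f2 did not pass the filter through Control alone. Whether the classes fell to a different extent was not tested.

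**Figure D4:**
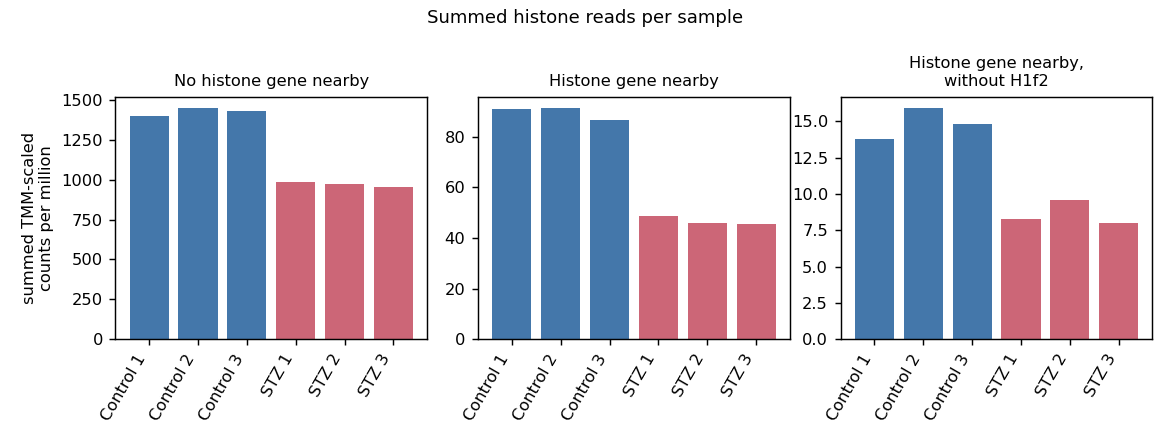
Summed TMM-scaled CPM of the rows without a histone gene nearby (left), with one nearby (middle) and with one nearby but without H1f2 (right), with 1 bar per sample (Control blue, STZ red) and axes from 0. In each panel every STZ bar is under every Control bar, with means of 1427 and 974, 89.8 and 46.8, and 14.8 and 8.62.

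Genes that process, degrade and carry histones or their mRNA were taken from lists, and a listed symbol on several rows was taken from its row with the most reads. Of 11 genes tested that form the 3′ end of histone mRNA, 3 were lower and 2 higher, with a median log2 fold change of -0.01. Slbp, the protein that binds the stem-loop, had 87.1 ± 7.27 CPM in Control and 77.6 ± 3.71 CPM in STZ (SD, n = 3 each), with overlapping samples and a log2 fold change of -0.17 (edgeR adjusted p = 0.0092). Zfp473, a zinc finger protein of the U7 particle that cuts the mRNA, had a log2 fold change of 0.53 (edgeR adjusted p = 0.0208) at 2.98 CPM in Control. Both calls were lost without Control replicate 2 (edgeR adjusted p = 0.137 and 0.0744). The call of Slbp was also lost without STZ replicate 2 (edgeR adjusted p = 0.0728), and that of Zfp473 without STZ replicate 1 (edgeR adjusted p = 0.0778) and with DESeq2 (adjusted p = 0.0805). Npat, the activator of histone gene transcription, had 69.2 CPM in Control and 70.2 CPM in STZ and did not pass.

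Of 13 genes of histone mRNA decay, 6 were lower and 1 higher, with a median of -0.19. Exosc10, a nuclease of the nuclear exosome, had a log2 fold change of -0.34 (edgeR adjusted p = 1.9e-07), and Lsm4, part of the ring that binds the mRNA end, one of -0.35 (edgeR adjusted p = 3.4e-07). Upf1, the helicase that starts histone mRNA decay, and Eri1, the exonuclease that trims the stem-loop, fell by 0.21 and 0.22 on the log2 scale.

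Histone chaperones and loaders were lower more often than higher. Of 16 chaperones that work with replication, 8 were lower and 1 higher (median -0.14), and Nasp, which holds a reserve of H3 and H4, changed most, with 323 ± 9.22 CPM in Control, 225 ± 6.48 CPM in STZ (SD, n = 3 each) and a log2 fold change of -0.52 (edgeR adjusted p = 5.8e-15). Of 17 genes that deposit or remove variants, 12 were lower and 1 higher (median -0.26). Anp32e, which takes H2A.Z off chromatin, had the largest change, with a log2 fold change of -0.60 (edgeR adjusted p = 1.2e-15). Srcap and Znhit1, of the complex that loads H2A.Z, had log2 fold changes of -0.45 and -0.54, Hira, which loads H3.3, -0.38, and Hjurp, which loads the centromere histone Cenpa, -0.47. Cenpa itself was at -0.26. All of these passed the test. In the same list of variant genes, Ubn1 was the higher one, with a log2 fold change of 0.13 (edgeR adjusted p = 0.0091). Vps72 (0.10), Mis18a (0.15), Oip5 (0.12) and Daxx (-0.03) did not pass.

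Genes of S phase, when replication-dependent histones are made, were also lower more often than higher, with 11 of 18 lower, 2 higher and a median of -0.20. Pcna, the clamp of the replicating polymerase, had the largest change, with a log2 fold change of -0.73 (edgeR adjusted p = 3.7e-19). No gene of these 5 lists passed the fold-change threshold, and each count can be set beside the 25.1% lower and 25.9% higher among all genes tested. How the changes in these S-phase genes relate to those in the histone genes was not tested.

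**Figure D5:**
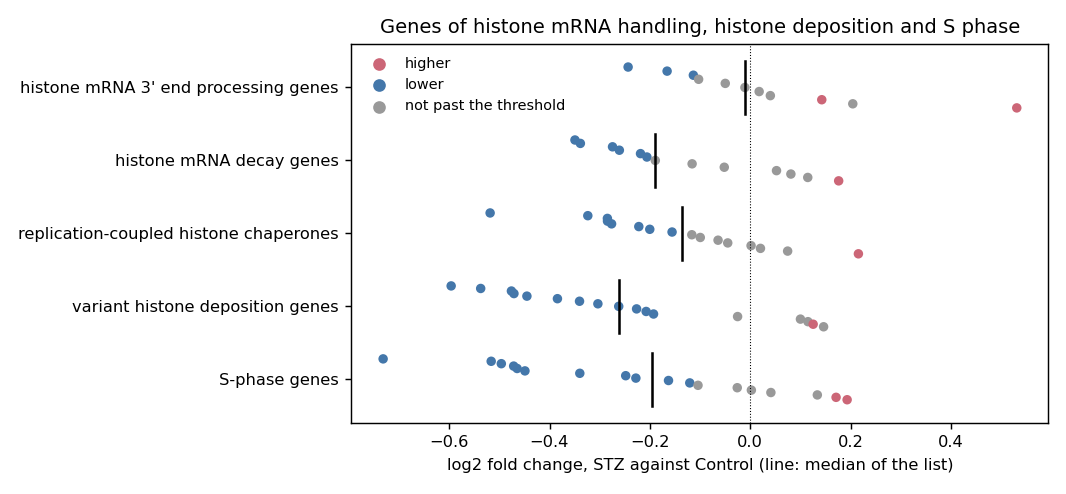
Log2 fold change (STZ against Control) of the tested genes of 5 lists, 1 point per gene, coloured by whether it was higher, lower or not past an adjusted p of 0.05, with a black line at the median of each list. Medians run from -0.26 for variant deposition to -0.01 for 3′ end processing.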

How the data were processed

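Poly(A)-selected RNA libraries of 3 Control and 3 STZ-treated NRK-52E samples were sequenced by the authors as single 100-bp reads. The authors mapped them to the rat genome (Rnor6) with STAR 2.7.10a, used featureCounts on the reads that mapped uniquely, and left the deposited counts without normalization. Reads that fit several histone copies equally well were therefore not counted. Samples were grouped by their titles.

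edgeR 4.0.16 (R 4.3.3) supplied TMM scaling, filterByExpr (minimum count 10) and the quasi-likelihood F test over 11870 genes, and p-values were adjusted by Benjamini-Hochberg. A standard error (SE) is the size of the log2 change over the root of F. The test was checked on simulated data. Totals of 10430924 to 15191349 reads limit the precision of members with few reads. No sample repeated another of its group within sampling noise (chi-square over its degrees of freedom at least 1.85).

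The members and lists were chosen with earlier results of these data known. Named were the variant genes with a mean of at least 10 counts, the cluster genes with most reads, members past both thresholds, and from each list the genes with the smallest p and the largest change. Other genes of the lists were named after their values were seen. Alternatives were other scalings, filters and tests (DESeq2 1.42.0, limma-voom of limma 3.58.1, edgeR's exact test and glmTreat), a replicate block and leaving out each sample. Promoters and names came from RefSeq (GRCr8).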

Additional observations from a re-analysis of the deposited data

How the results depend on the processing

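The fall of H1f0, H2az1, H2ax, H1f2, H2az2, H1f10 and the second H3f3a row and the rise of H2aj kept their direction and an adjusted p under 0.05 under every other scaling, filter and test run for single genes, the replicate block and each sample left out. H2aj lay between 0.64 and 0.75 and H1f0 between -1.17 and -1.11 on the log2 scale.

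The filter on low counts decided the counts of cluster genes and of members past both thresholds. With no filter, 6 cluster genes were lower (1 as reported), 9 histone genes passed both thresholds (3 as reported), and the medians were -1.05 for cluster and -0.56 for variant genes. Where every sample had to hold at least 10 counts, 0 cluster genes were lower, 1 histone gene passed both thresholds and the cluster median was -0.17, from the single cluster gene left. With glmTreat, 1 histone gene passed. These settings test more or fewer genes, or require more of the fold change. Library size only moved the variant median from -0.53 to -0.56, since it leaves out the TMM factors, which were above 1 in each Control sample and below 1 in each STZ sample, and all 22 single genes refitted moved downward with it.

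With each sample left out in turn, the cluster median was -1.12 to -0.28 and the variant median -0.62 to -0.46. Classes by position and summed rows were chosen after seeing the data. With classes by position, 3 cluster genes were lower, among them H4f3 and the third Hist2h3c2 row, which passed the filter through Control alone. With rows of a symbol summed, the variant median was -0.64. The ratio of the mean cluster share in STZ to that in Control, 0.542, was 0.555 with TMM-scaled totals and 0.486 without Hist1h2bo.

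Among 344 refits of 22 single genes, 327 gave the same call, 5 were weaker, 6 stronger and 6 changed sign. The changes of sign were in H1f5 (0.0086 under limma-voom, 0.0090 with the replicate block, and -0.33 to 0.25 with each sample left out) and Hist1h2bo (-0.43 to 0.21 with each sample left out, above 0 without Control replicate 1), neither of which passed the test.

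Same-numbered Control and STZ samples had deviations from their group means that correlated by 0.0319, -0.0389 and 0.102 over 10341 genes, so the numbers were not taken as pairs. In the fit with the replicate block, 9 variant genes were lower, 1 was higher and 3 histone genes passed both thresholds, the added gene being the first H3f3a row.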
